A study of Mus musculus with 37 samples.

Results

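The Dlk1-Dio3 imprinted domain of mouse chromosome 12 was followed through its 6 large transcripts in sorted primordial germ cells (PGCs), from which eggs and sperm later form. The members were the 3 protein-coding genes Dlk1, Rtl1 and Dio3 and the 3 long noncoding RNA genes Meg3, Rian and Mirg. They were taken by symbol from the E10.5 and E11.5 expression tables, and all 6 were present in both tables, among 24318 genes in each.

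The domain is imprinted, so that which copy of a gene is transcribed depends on the parent it came from. Its coding genes are known to be transcribed from the paternal copy and its noncoding RNAs from the maternal copy, under the control of a region near Meg3 that carries DNA methylation on the paternal copy. PGCs are the cells in which such parental marks are erased, and Dnmt1 restores DNA methylation on newly made DNA after each round of replication.

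The study compared PGCs with and without Dnmt1 by RNA sequencing of polyA RNA. Mothers homozygous for the reporter Oct4-IRES-Gfp and the floxed allele Dnmt1 2lox were crossed to males carrying Blimp1-Cre, a recombinase gene driven by a gene switched on as PGCs form. The libraries called DCKO have the genotype Dnmt1 -/- in the labels, and the controls are given as wild type. Mothers homozygous for the floxed allele pass it to every embryo, so wild type cannot mean that a control lacked it. The other alleles of each control embryo are not given, and the cells of both groups were sorted as GFP positive. The E10.5 table held 3 DCKO libraries (2 female, 1 male) and 4 controls (2 of each sex). The E11.5 table held 10 DCKO libraries (6 female, 4 male) and 8 controls (4 of each sex). Of the 37 samples in the labels, 25 had values in these tables, and the 12 at E13.5 were not analysed here. Dnmt1 levels did not overlap between the genotypes at either stage, with DCKO below control (at most 59.4 RPKM against at least 72.9 RPKM at E11.5, and at most 29.6 RPKM against at least 74.1 RPKM at E10.5).

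Values are RPKM, reads scaled by transcript length and library total, so that levels of different genes can be set side by side. They could not be turned back into whole reads, so depth is unknown and values carry no counting interval. Libraries held 9125 to 11095 genes at or above 1 RPKM in the E10.5 table, and 8277 to 13200 in the E11.5 table. An entry of exactly 0 is described as listed at 0, since it can be a failed estimate. RNA levels of this kind do not separate the maternal from the paternal copy. Whether each library had its own embryos is not said in the labels, so p-values measure the spread between these libraries, which may be technical in part. The tables of the 2 stages may have been normalized separately, and no test was made between stages.

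The annotated start sites of the members differed in how many CG lie near them, CG being the dinucleotide that Dnmt1 acts on. Methylation of these sites was not measured here, and the control region near Meg3 was not examined. The windows below run from 250 bases before to 50 bases after the start site, on the plus strand, from RefSeq on GRCm38.p6 (the expression tables were made on another build), with every CG in capitals. The window of Meg3 (chr12:109540746-109541045) held 13 CG, and 37.9% of 32851 mouse promoters held as many or more. That of Dlk1 (chr12:109452573-109452872) held 9 CG, a number reached by 45.8% of promoters, and that of Rian (chr12:109603695-109603994) held 0, which lies below the median of 7. The window of Dio3 (chr12:110278980-110279279) was the richest with 25 CG, reached by 18.4% of promoters.
Meg3: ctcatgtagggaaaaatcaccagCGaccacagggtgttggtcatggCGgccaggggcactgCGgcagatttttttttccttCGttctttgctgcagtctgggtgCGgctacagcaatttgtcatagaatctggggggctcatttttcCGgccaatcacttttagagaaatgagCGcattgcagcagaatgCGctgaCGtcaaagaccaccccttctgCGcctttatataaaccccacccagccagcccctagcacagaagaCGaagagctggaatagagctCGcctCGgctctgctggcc
Dlk1: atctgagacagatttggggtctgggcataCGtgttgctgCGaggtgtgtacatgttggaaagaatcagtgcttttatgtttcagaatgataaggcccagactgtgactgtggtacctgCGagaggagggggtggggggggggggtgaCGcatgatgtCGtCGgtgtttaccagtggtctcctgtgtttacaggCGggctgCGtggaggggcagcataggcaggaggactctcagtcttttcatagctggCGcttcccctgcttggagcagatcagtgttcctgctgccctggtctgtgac
Rian: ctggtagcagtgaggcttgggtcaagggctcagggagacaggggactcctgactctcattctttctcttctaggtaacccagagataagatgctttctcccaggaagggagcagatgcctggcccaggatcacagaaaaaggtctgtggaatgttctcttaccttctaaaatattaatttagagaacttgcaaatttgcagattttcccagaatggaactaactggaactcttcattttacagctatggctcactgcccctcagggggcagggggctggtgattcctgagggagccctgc
Dio3: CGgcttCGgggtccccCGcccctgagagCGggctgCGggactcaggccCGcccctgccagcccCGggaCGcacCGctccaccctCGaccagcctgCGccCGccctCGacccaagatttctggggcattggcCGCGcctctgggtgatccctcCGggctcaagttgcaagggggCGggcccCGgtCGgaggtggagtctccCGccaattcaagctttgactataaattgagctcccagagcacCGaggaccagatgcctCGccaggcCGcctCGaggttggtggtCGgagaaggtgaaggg
The window of Mirg, a start site between Rian and Dio3, held 10 CG, and the table held no entry for Rtl1. The letters TGCCGC, the core recognised by the imprint-protecting zinc finger protein Zfp57 when its CG is methylated, were searched on both strands, and the match itself contains a CG. They occurred 1 time in the Meg3 window and in none of the windows of Dlk1, Rian, Mirg and Dio3, and 11.6% of all promoters held them. These matches are a description of the letters and were not tied to any measurement.

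The noncoding RNAs of the domain stood above its coding genes, as sums, in the sorted PGC libraries of both genotypes. How much of either sum came from cells other than germ cells was not tested. The sum of Meg3, Rian and Mirg exceeded the sum of Dlk1, Rtl1 and Dio3 within each of the 25 libraries, in 3 of 3 DCKO and 4 of 4 control libraries at E10.5 and in 10 of 10 and 8 of 8 at E11.5. At E11.5 the median noncoding sum was 17.5 RPKM in DCKO and 19.7 RPKM in control libraries, against a median coding sum of 1.33 and 1.29 RPKM. Meg3 lay above Dlk1 in 9 of 10 DCKO and 8 of 8 control libraries at E11.5, and in all 7 libraries at E10.5.

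In the order of mean log2(RPKM + 1) at E11.5, Meg3 stood first, followed by Rian, Dlk1, Mirg, Rtl1 and Dio3. Only the step from Rian to Dlk1 was larger than the spread of the within-library difference, at 1.48 ± 1.27 on the log2 scale (SD, n = 18), with Rian above Dlk1 in 16 of 18 libraries. Meg3 lay above Rian in 15 of 18 libraries, yet the mean difference of 0.45 was smaller than its SD of 1.35. The steps from Dlk1 to Mirg, from Mirg to Rtl1 and from Rtl1 to Dio3 were likewise within their SD. At E10.5 the one step beyond its SD was that from Rian to Mirg, at 2.03 ± 0.88 (SD, n = 7), with Rian higher in 7 of 7 libraries.

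**Figure D1:**
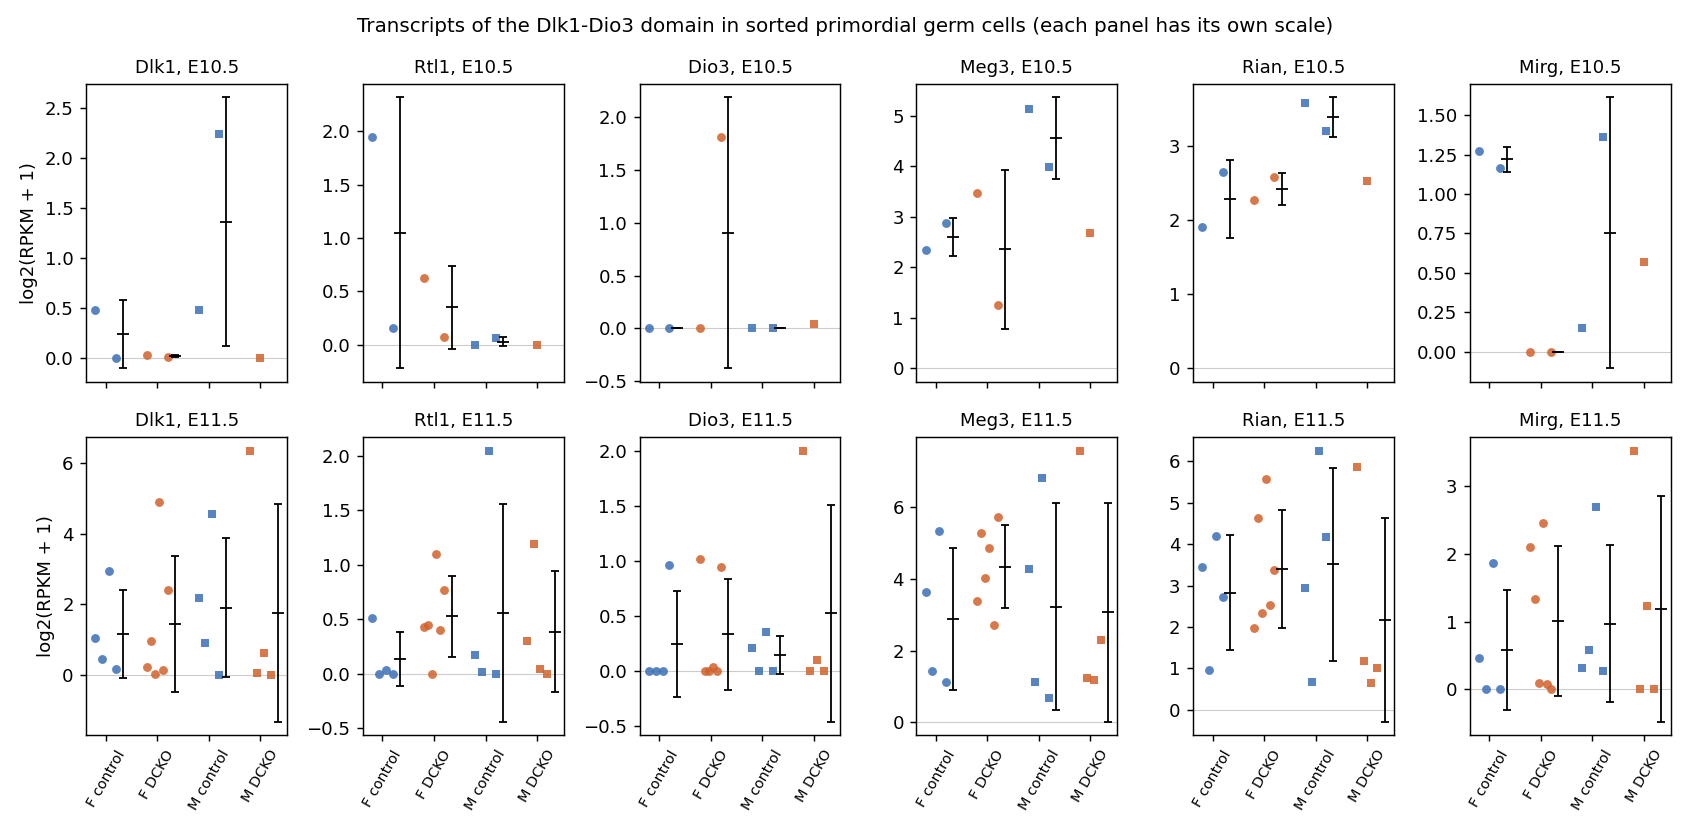
Level of each domain transcript, as log2(RPKM + 1) on the vertical axis, in E10.5 (top) and E11.5 (bottom) libraries grouped by sex (F female, M male) and genotype. Points are libraries and bars are mean ± SD of groups with at least 2 libraries, and each panel has its own scale. DCKO and control libraries overlap in every panel.

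Dlk1 encodes a membrane protein with epidermal growth factor-like repeats, related to the Notch ligands, which marks many immature cells. At E11.5 it ran from 0.0196 to 28.9 RPKM in the 6 female DCKO libraries, with a median of 0.564 RPKM. The 4 female controls had 0.122, 0.359, 1.09 and 6.63 RPKM. Female DCKO libraries reached both lower and higher than every female control.

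Among males, the 4 DCKO libraries had 0, 0.0512, 0.536 and 80.2 RPKM of Dlk1, and the 4 controls had 0, 0.875, 3.51 and 22.3 RPKM. One library of each genotype stood far above its group, and the other 3 DCKO libraries lay at or below 0.536 RPKM. The E11.5 log2 fold change of Dlk1, DCKO over control averaged over the sexes, was 0.07 (SE 0.92, 95% interval -1.85 to 1.99, limma adjusted p = 0.995). The direction was not stable, since it fell to -0.69 without male DCKO 1 and turned negative in 6 other leave-one-out fits too. The interval spans differences of more than 3-fold either way, so this model could not exclude a change of that size in Dlk1. Other models of the same libraries, given below, had a smaller SE.

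At E10.5 Dlk1 was nearly absent from DCKO libraries, with 0 RPKM in the male and 0.0204 and 0.0113 RPKM in the females. The controls had 0.400 and 3.74 RPKM in males and 0.394 and 0 RPKM in females. A control listed at 0 lay below both DCKO females, so the groups overlapped. Permuting the genotype labels exactly gave p = 0.229 (3 against 4 libraries), where 0.0286 is the smallest possible. The mean over all 7 libraries, 0.652 RPKM, kept Dlk1 under the filter of 1 RPKM for the test across genes.

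Rtl1, a gene derived from a retrotransposon and known for its role in the placenta, stayed low at both stages. At E11.5 its median was 0.337 RPKM in 10 DCKO libraries (lowest 0, highest 1.29) and 0.0194 RPKM in 8 controls (lowest 0, highest 3.14). It was listed at 0 in 2 DCKO and 3 control libraries, and the highest library was male control 3. The exact permutation p was 0.677 over all 18 libraries (10 against 8), 0.129 in females and 0.857 in males.

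At E10.5 Rtl1 had 2.86 and 0.112 RPKM in the female controls, 0 and 0.0434 RPKM in the male controls, 0.545 and 0.0509 RPKM in the female DCKO libraries and 0 in the male one. One female control thus carried most of the signal, and the exact permutation p was 0.857 (3 against 4). At 0.516 and 0.455 RPKM on average at E10.5 and E11.5, Rtl1 was below the filter at both stages. Whether reads were counted by strand is not given in the sources used here, and the RNA made opposite to Rtl1 on the maternal copy cannot be told apart from Rtl1 itself.

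That opposite RNA is the source of microRNAs known to cut the Rtl1 message, being fully complementary to it. GENCODE places 6 microRNA genes inside Rtl1 on the other strand, and all 6 were in the tables, at 0 in every E10.5 library. At E11.5 only Mir431 and Mir434 had a value, in 1 library each, male control 3, at 54.8 and 39.4 RPKM. Their mature sequences in RefSeq (GRCm38.p6, plus strand) are shown, from chr12:109590459-109590479 for miR-431-5p to chr12:109594565-109594586 for miR-434-3p, with the seed (bases 2 to 8) in capitals.
miR-431-5p: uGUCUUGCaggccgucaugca
miR-431-3p: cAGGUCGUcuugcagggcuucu
miR-434-5p: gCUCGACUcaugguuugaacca
miR-434-3p: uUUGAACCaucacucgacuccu
No seed was shared among these 4, nor among the 10 mature microRNAs of the 5 genes with an entry in the table. The libraries were made to read longer RNA, so a value for a microRNA gene is that of reads on its short gene model and not of the mature microRNA.

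Dio3 encodes the deiodinase that inactivates thyroid hormone. It was listed at 0 in 10 of 18 libraries at E11.5, in 5 of 10 DCKO and 5 of 8 controls. The highest values were 3.01 RPKM in male DCKO 1, 1.02 and 0.921 RPKM in female DCKO 1 and 6, and 0.951 RPKM in female control 4. The values above 0 lay in both genotypes (exact permutation p = 0.468, 10 against 8 libraries). At E10.5 the 4 controls were all at 0, and the DCKO libraries had 0.0319, 0 and 2.51 RPKM, the last in female DCKO 2. The exact permutation p was 0.143 (3 against 4), and Dio3 was below the filter at both stages.

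Meg3, a noncoding RNA that starts next to the domain's methylated control region, was above 0 in every library, as was Rian. In the 6 female DCKO libraries at E11.5 it ran from 5.58 to 51.7 RPKM with a median of 21.6 RPKM. The 4 female controls had 1.20, 1.69, 11.3 and 39.2 RPKM. The lowest female DCKO library lay above 2 of the controls, and 1 control lay above 5 of the 6 DCKO libraries.

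In males, Meg3 was at 1.26, 1.35, 3.91 and 189 RPKM in DCKO and at 0.593, 1.17, 18.5 and 111 RPKM in controls. Each genotype again held 1 library far above the others, male DCKO 1 and male control 3. The log2 fold change of Meg3 at E11.5 was 0.65 (SE 0.96, 95% interval -1.36 to 2.66, limma adjusted p = 0.975), and it was -0.10 without male DCKO 1 alone. In females it was 1.45 (SE 1.29, limma adjusted p = 1.00) and in males -0.15 (SE 1.41, limma adjusted p = 1.00). The exact permutation p for Meg3 in females was 0.186 (6 against 4 libraries). It reached 0.0476 with a difference of 2.27 when female control 3, the highest control, was left out, a p for 1 gene alone and 1 of 10 libraries that could be left out.

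At E10.5 Meg3 had 34.1 and 14.8 RPKM in the male controls, 4.05 and 6.31 RPKM in the female controls, 5.43 RPKM in the male DCKO library and 10.1 and 1.37 RPKM in the female ones. The male controls were the highest 2 of the 7 libraries, and the female controls fell among the DCKO values. The log2 fold change with sex in the model was -0.90 (SE 0.75, 95% interval -2.59 to 0.80, limma adjusted p = 0.991). By exact permutation p was 0.314 (3 against 4).

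Rian, downstream of Meg3, is the host RNA of a large cluster of small nucleolar RNAs. At E11.5 it had a median of 7.11 RPKM in female DCKO (lowest 2.96, highest 46.8, 6 libraries), and 0.946, 5.57, 9.94 and 17.3 RPKM in the female controls. Male DCKO libraries had 0.577, 1.01, 1.28 and 56.9 RPKM and male controls 0.583, 6.74, 17.0 and 75.6 RPKM. In males 3 of 4 DCKO libraries lay below 3 of 4 controls, while male control 2 was as low as the lowest DCKO library.

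The E11.5 log2 fold change of Rian was -0.38 (SE 0.82, 95% interval -2.09 to 1.34, limma adjusted p = 0.991), and 0.08 without male control 3. It was 0.58 (SE 1.10) in females and -1.33 (SE 1.21) in males, with limma adjusted p of 1.00 and 0.857. At E10.5 Rian had the smallest SD of the 6 members over all libraries (0.56 on the log2 scale), at 3.82, 4.75 and 4.98 RPKM in DCKO and 2.77, 5.30, 8.23 and 11.02 RPKM in controls. The DCKO libraries lay inside the range of the controls (log2 fold change -0.26, SE 0.59, limma adjusted p = 0.991). Without the male DCKO library that fold change was 0.14.

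Mirg, the most distal of the noncoding RNAs, hosts a large group of microRNAs. The 10 DCKO libraries at E11.5 had a median of 0.705 RPKM (lowest 0, highest 10.54), and the 8 controls a median of 0.317 RPKM (lowest 0, highest 5.49). Each range was wide enough to hold the median of the other genotype. It was listed at 0 in 3 DCKO and 2 control libraries. Its log2 fold change was 0.32 (SE 0.57, 95% interval -0.86 to 1.51, limma adjusted p = 0.985), and -0.07 without male DCKO 1.

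At E10.5 Mirg had 0.108, 1.24, 1.42 and 1.57 RPKM in the controls, and 0.483, 0 and 0 RPKM in the DCKO libraries. Only male control 1 lay below a DCKO library, and the exact permutation p of 0.0857 (3 against 4) was the lowest of the 6 members at that stage. With quantile-normalized values the p was 0.0286, the smallest that 35 splits can give, for a difference of -0.76. That p is for 1 gene alone and 1 of 6 members, and Mirg was under the filter for the test across genes.

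No member passed the adjusted threshold of 0.05 in the comparison of genotypes at either stage, where 0.0237% of 12667 genes did at E11.5 (3 genes) and 0 of 11584 at E10.5. By limma, 0 of 4 tested members at E11.5 and 0 of 2 at E10.5 had an unadjusted p under 0.05, against 5.46% and 3.09% (358 genes) of all genes. The log2 fold change was above 0 for 3 of the 4 at E11.5 (45.0% of all genes) and for 0 of the 2 at E10.5 (46.8% of all genes). In females 0.00789% of genes passed, in males 0.0316%. The exact permutation tests of all 6 members at E11.5 gave p from 0.455 for Meg3 to 0.968 for Dlk1 (10 against 8 libraries). For none of the 6 members did the DCKO and control libraries fail to overlap, at either stage or in either sex at E11.5. Of all tested genes 0.0395% did not overlap over all E11.5 libraries, 1.22% in females, 2.34% in males and 5.15% at E10.5.

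The difference between the sexes in the genotype effect was tested directly. It was 0.44 for Dlk1, 1.60 for Meg3, 1.91 for Rian and 0.20 for Mirg on the log2 scale, female minus male, with SE of 1.83, 1.92, 1.64 and 1.13 and a limma adjusted p of 0.995 for each. In that comparison 0 of 12667 genes passed, and 454 (3.58%) had an unadjusted p under 0.05. Females against males, averaged over the genotypes, gave -0.53 for Dlk1, 0.46 for Meg3, 0.28 for Rian and -0.28 for Mirg, each smaller than its SE of 0.92, 0.96, 0.82 and 0.57 (limma adjusted p from 0.951 to 0.978), where 0.0395% of genes passed. Both kinds of difference in these 4 transcripts were within the spread between libraries.

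The E11.5 libraries also differed in the level of RNAs listed as markers of cells other than germ cells, not all of which need be absent from germ cells. The somatic marker mean used here averages log2(RPKM + 1) over markers of gonadal somatic cells, mesenchyme, endothelium and macrophages. Of the 54 listed, the mean holds the 40 that passed the filter of 1 RPKM over all E11.5 libraries. Gata4, among the 40, had 14.9 RPKM in female DCKO 4, 23.9 RPKM in male control 3 and 78.8 RPKM in male DCKO 1. It had at most 2.48 RPKM elsewhere, so it passed through those libraries. How many of the 40 passed in this way was not counted. Controls spanned 1.06 to 4.70 and DCKO libraries 0.82 to 3.96, and the summed level of all 54 spanned 307 to 2245 RPKM and 277 to 1807 RPKM. None of the 54 was at 0 in all E11.5 libraries, and Fn1, Sparc and Pecam1 were at 1 RPKM or more in each of them. Pecam1 did not follow the marker mean, with 26.9 RPKM in male control 3, where the mean was highest, and 158 RPKM in male control 4, where it was 1.06. It was lowest in male DCKO 4 (21.2 RPKM), which also had the lowest mean. Whether the RNA of these 3 genes came from germ cells or from other cells was not tested. A germ cell marker mean over 14 of 15 listed genes was 3.21 in male control 3 and between 5.14 and 6.41 in the other 17 libraries. In bulk RNA, fewer cells of a type and less RNA per cell cannot be told apart.

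Dlk1, Meg3, Rian and Mirg were higher in libraries with a high somatic marker mean. The 3 libraries highest in it, male control 3 (4.70), female DCKO 4 (3.96) and male DCKO 1 (3.88), held the 3 highest values of Dlk1, of Rian and of Mirg. Dlk1 was at 22.3, 28.9 and 80.2 RPKM in them and at most at 6.63 RPKM elsewhere. Meg3 ranked second, sixth and first in the same libraries, with 111, 27.9 and 189 RPKM. Rtl1 had ranks of 1, 3 and 9 and Dio3 ranks of 5, 8 and 1 there, and neither was correlated with the marker mean here because both were under the filter.

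**Figure D2:**
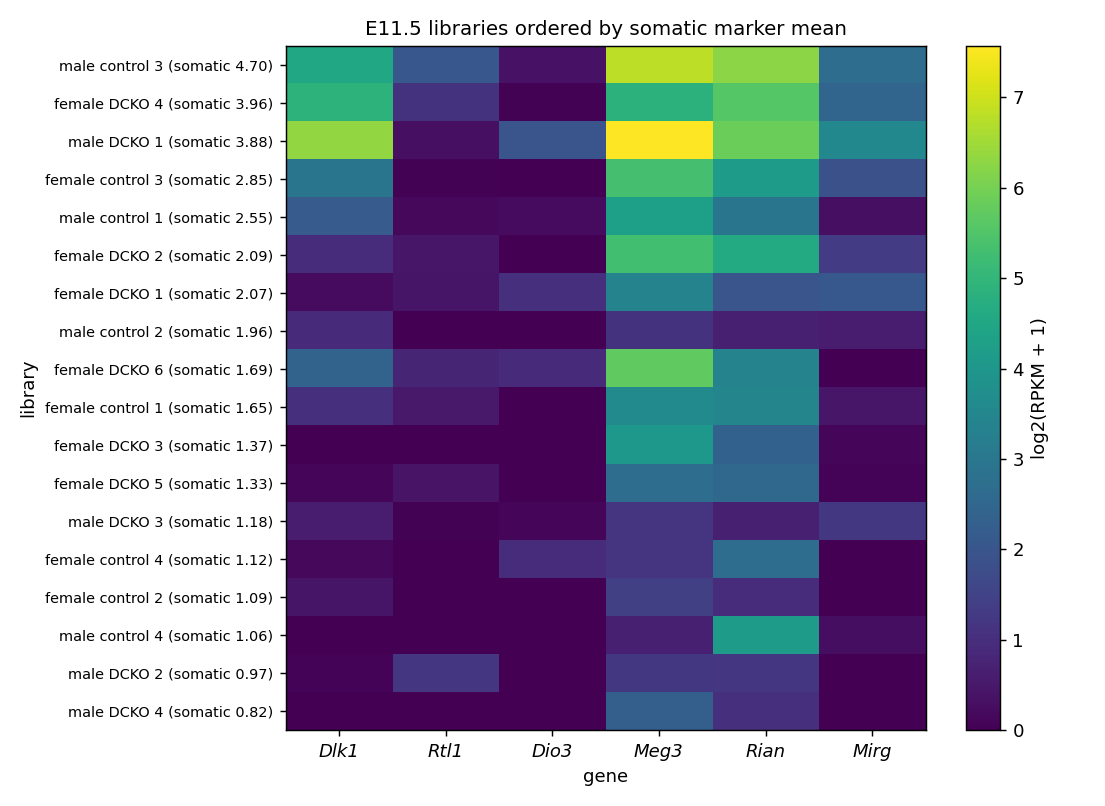
Level of each member as log2(RPKM + 1), by colour, in the 18 E11.5 libraries (vertical axis, from the highest somatic marker mean at the top, given in brackets) for the 6 genes (horizontal axis). Dlk1, Rian and Mirg are at their highest in the top 3 libraries, which hold both genotypes and both sexes.

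Across the 18 libraries the Pearson correlation with the somatic marker mean was 0.91 for Dlk1 (Spearman 0.87), 0.86 for Mirg (0.83), 0.80 for Meg3 (0.77) and 0.79 for Rian (0.68). Mirg passed the filter through the 3 libraries highest in somatic markers and fell under it without them, so its correlations are a description with no p. For Dlk1, Meg3 and Rian, permutation p was adjusted over the 14 relations computed. It ran from 1.4e-04 to 3.0e-04 for Pearson and from 1.4e-04 to 0.00628 for Spearman. These p take the marker mean as given. They make no allowance for markers that, like Gata4, passed the filter through few libraries. Of 12667 genes, 0.679% correlated with the somatic mean as highly as Dlk1, 1.99% as Mirg, 3.96% as Meg3 and 4.02% as Rian, and the median gene had r = 0.04. Without the 2 libraries farthest from the median somatic mean, r was 0.89, 0.82, 0.80 and 0.66 in the same order.

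Because 3 libraries stood apart, the relation was also taken over the other 15. There r was 0.79 for Dlk1, 0.69 for Meg3 and 0.47 for Rian, with permutation p of 9.1e-04, 0.00530 and 0.0788, and it was 0.64 for Mirg. Rian therefore rested in part on those 3 libraries. The markers were not chosen again over the 15, so the marker mean itself was not independent of those 3. Within the controls alone r was 0.98 for Dlk1, 0.92 for Mirg, 0.90 for Meg3 and 0.67 for Rian, and within DCKO libraries 0.92, 0.88, 0.76 and 0.90. These values share the library they come from, and the part of other cells in any genotype difference of the domain was not tested beyond the covariate below.

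**Figure D3:**
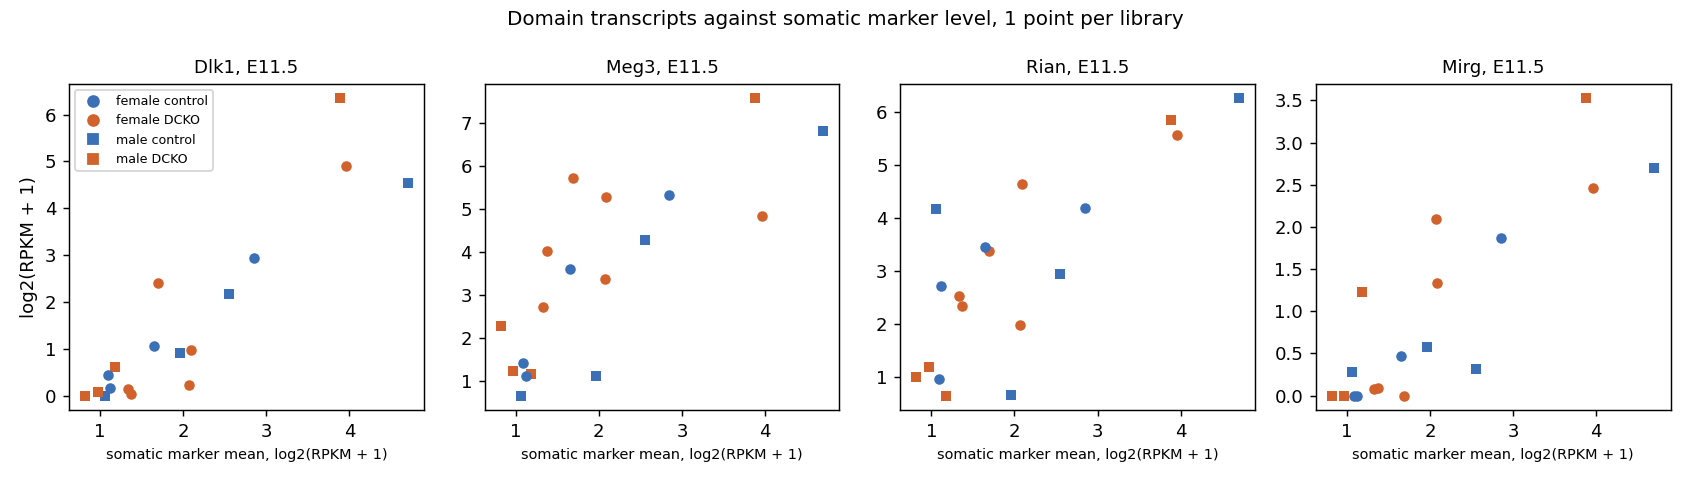
Level of Dlk1, Meg3, Rian and Mirg as log2(RPKM + 1) (vertical axis) against the somatic marker mean on the same log2 scale (horizontal axis), 1 point per E11.5 library, with colour for genotype and shape for sex. Of the 4, Dlk1 has the highest correlation with the marker mean (r = 0.91), and both genotypes are found at high and at low marker means.

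These 4 members were also correlated with each other. Over 18 libraries r was 0.81 for Dlk1 with Meg3, 0.81 for Dlk1 with Mirg, 0.77 for Dlk1 with Rian, 0.78 for Meg3 with Rian, 0.68 for Meg3 with Mirg and 0.67 for Rian with Mirg. Spearman values were 0.75, 0.67, 0.62, 0.71, 0.51 and 0.55, and for the 3 pairs without Mirg permutation p adjusted over the 14 relations ran from 1.4e-04 to 4.8e-04 for Pearson and from 0.00199 to 0.0127 for Spearman. Without the 2 libraries farthest from the median of the first gene of each pair, r was 0.78, 0.61, 0.67, 0.65, 0.42 and 0.45. Over the 15 libraries without the 3 highest in somatic markers it was 0.70, 0.31, 0.44, 0.61, 0.33 and 0.22, with permutation p of 0.00294 for Dlk1 with Meg3, 0.101 for Dlk1 with Rian and 0.0178 for Meg3 with Rian.

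Against the germ cell marker mean the 4 members ran the other way, with r of -0.67 for Dlk1, -0.49 for Meg3, -0.58 for Rian and -0.59 for Mirg (permutation p adjusted over 14 relations from 0.00601 to 0.0264 for the first 3). Of 12667 genes, 96.4% had an r as high as Dlk1 or higher, 88.1% as Meg3, 92.4% as Rian and 93.0% as Mirg. The median gene had r = -0.03, and many genes were as negative as Meg3. The Spearman values were -0.61, -0.31, -0.44 and -0.46, with adjusted permutation p of 0.0135, 0.211 and 0.0703 for Dlk1, Meg3 and Rian. Without the 2 libraries farthest from the median germ cell mean, r was -0.63, -0.27, -0.26 and -0.44. Over the 15 libraries without the 3 highest in somatic markers r was -0.17, 0.19, 0.16 and 0.10, so this relation rested on those libraries.

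Adding the somatic marker mean to the model gave E11.5 genotype differences of 0.45 for Dlk1 (SE 0.38), 1.01 for Meg3 (SE 0.55), -0.10 for Rian (SE 0.54) and 0.53 for Mirg (SE 0.31). The SE of each was smaller than without the covariate, and limma adjusted p ran from 0.631 for Meg3 upward. That model of all 18 libraries also gave a male difference. It was 1.27 for Dlk1 (SE 0.58, limma adjusted p = 0.365) and 1.01 for Mirg (SE 0.48). The limma unadjusted p of Dlk1 in males was 0.0431. In the comparison over both sexes with the covariate, 1099 of 12667 genes had an unadjusted p under 0.05. Mirg passed the filter through the 3 libraries highest in somatic markers, so its male value is a description with no p. Leaving out the 3 libraries highest in somatic markers gave -0.60 for Dlk1, 0.45 for Meg3 and -0.75 for Rian, and Mirg then fell under the filter. The 3 libraries whose titles begin with 90 (a number the labels do not explain) included 2 of these, and without them the differences were 0.46, 1.60, 0.09 and 0.68 for Dlk1, Meg3, Rian and Mirg. Without the 3 libraries with the fewest genes at 1 RPKM or more (male control 4, male DCKO 4 and male DCKO 1) they were -0.95, -0.71, -0.89 and -0.08. No member passed the adjusted threshold in any of these fits, and each of the 4 had a fold change above 0 in at least 1 of them and below 0 in at least 1 other.

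**Figure D4:**
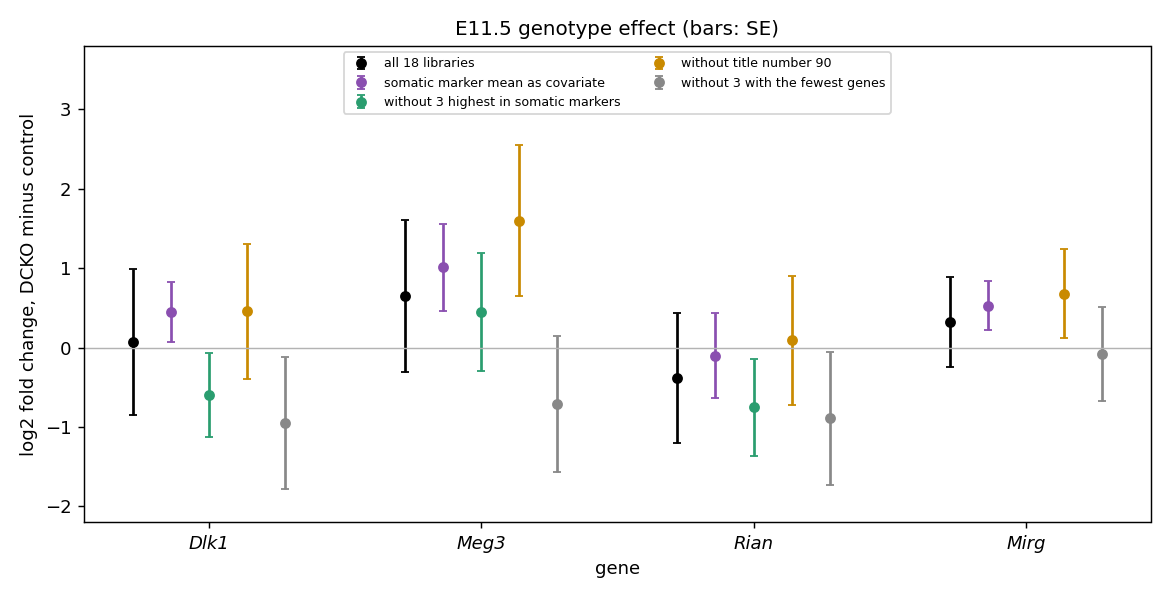
Log2 fold change at E11.5, DCKO minus control (vertical axis), of Dlk1, Meg3, Rian and Mirg (horizontal axis) in all 18 libraries, after adding the somatic marker mean to the model, and with sets of 3 libraries left out. Points are estimates and bars are 1 SE, and Mirg has no point without the 3 libraries highest in somatic markers because it was under the filter there. For Meg3 the estimate runs from -0.71 to 1.60.

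At E10.5 the picture differed in which library was high. The somatic marker mean (22 of the 54 genes passed the filter) was highest in male control 2 at 3.63, the library with the most Dlk1 (3.74 RPKM) and Mirg (1.57 RPKM). It was lowest in male control 1 at 1.54, the library with the most Meg3 (34.1 RPKM) and Rian (11.02 RPKM). The other 5 libraries lay between 1.89 and 2.12. Of the 54 genes, 7 were at 0 in all E10.5 libraries, among them Foxl2 and Cyp11a1 of the gonadal list and the macrophage genes Ptprc, C1qa, C1qc and Aif1. The part of these cells in the E10.5 values was not tested.

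The genes most like Meg3 over the 18 E11.5 libraries, by Pearson correlation of log2(RPKM + 1) among 12667 genes, were Hspg2 (r = 0.93), Rspo1, Epha7, Zfp362 and Lsp1 (r = 0.91 each). Hspg2 encodes the basement membrane proteoglycan perlecan and Rspo1 a secreted activator of Wnt signalling. Dlk1 came at rank 116, Rian at 184 and Mirg at 576 in that order. Those most like Dlk1 were Gata4, Trp53i11 and Cobl (r = 0.96 each) and Gfra1 and Hoxa9 (r = 0.95 each). Gata4 is a transcription factor of the somatic gonad and itself one of the somatic markers, and it ran from 0 to 78.8 RPKM. Meg3 came at rank 428 for Dlk1, Mirg at 432 and Rian at 565, so over these 18 libraries many genes outside the domain had a higher r with Dlk1 than its neighbours did. Cobl, Gfra1 and Hoxa9 had medians of 0.0349, 0.145 and 0.0286 RPKM and highest values of 9.52, 16.7 and 6.94 RPKM. They passed the filter through a few libraries, as did Rspo1 (median 0.391, highest 148 RPKM). The ranks were not taken without the 3 libraries highest in somatic markers.

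Between Dlk1 and Dio3 the tables also list 61 microRNA genes and 7 small nucleolar RNA genes, many of them carried by Meg3, Rian and Mirg. At E11.5, 39 of the 61 microRNA genes were at 0 in all libraries, and of the 22 with a value 14 had it in 1 library. At E10.5, 56 of 61 were at 0 throughout. Male control 3 had 18 of the 61 above 0, and no other library had more than 4. It was the library highest in somatic markers and also the one with the most genes at 1 RPKM or more (13200). Male DCKO 1, with a somatic marker mean of 3.88 and 9668 genes, had 2 of the 61 above 0.

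The small nucleolar RNA gene AF357425 was the most often seen, in 8 of 18 libraries at E11.5 (415 to 6129 RPKM) and 3 of 7 at E10.5 (140 to 2497 RPKM). It lay in 4 DCKO and 4 control libraries at E11.5. With a gene model of 69 bases, a few reads give it a high RPKM. Male control 3 also had 4 of the 7 small nucleolar RNA genes above 0, and male DCKO 1 had 3.

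Genes flanking the domain were read in the same way. Of 12 neighbours listed, 10 were tested at E11.5, 3 with a log2 fold change above 0 (all genes, 45.0%) and a median of -0.17 (all genes, -0.06), and none passed the adjusted threshold (limma). The smallest p was that of Slc25a47, a mitochondrial carrier, at -1.12 (SE 0.42, limma adjusted p = 0.902), with a median of 1.15 RPKM in 8 controls and 0.0553 RPKM in 10 DCKO libraries. Its highest control had 22.8 RPKM, and 1 control and 4 DCKO libraries were listed at 0. At E10.5, 9 were tested, 2 above 0 (all genes, 46.8%) and 0 past the threshold, led by Yy1 at -0.50 (SE 0.62).

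Of 22 listed genes that set, protect or read the domain's methylation, 20 were tested at E11.5, and 5 lay above 0 (all genes, 45.0%). Only Dnmt1, the gene deleted here, passed the threshold, at -2.07 (SE 0.34, limma adjusted p = 0.0355). In 12 of 18 leave-one-out fits it no longer passed, and over the 18 the fold change ran from -2.25 to -1.85, although the 2 groups did not overlap. Uhrf1, the partner that brings Dnmt1 to newly made DNA, had the next smallest p in this list, with medians of 14.5 RPKM in DCKO and 3.30 RPKM in control libraries (1.44, SE 0.70, limma adjusted p = 0.902). Dnmt3l and Jarid2 were at 0 in all libraries of both stages. Zfp57 had medians of 1.55 RPKM in DCKO and 4.48 RPKM in control libraries and ran from 0 to 35.5 RPKM. At E10.5, 19 were tested, 5 above 0 (all genes, 46.8%) and 0 past the adjusted threshold.

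Of the Notch pathway, to whose ligands Dlk1 is related, 17 of 24 genes were tested at E11.5, 10 above 0 (all genes, 45.0%) with a median of 0.08 (all genes, -0.06), and 0 passed. Maml1, a coactivator of Notch target genes, had the smallest p (log2 difference -1.42, SE 0.36, limma adjusted p = 0.517). Its medians were 5.03 RPKM over 10 DCKO libraries and 13.3 RPKM over 8 controls. The lowest control for Maml1, at 8.65 RPKM, lay just above the highest DCKO library, at 8.42 RPKM, a lack of overlap shown by 0.0395% of all genes tested. At E10.5, 13 were tested and 5 lay above 0 (all genes, 46.8%), the smallest p belonging to the receptor Notch2 (-1.21, SE 0.93). Maml1 showed no such gap at E10.5, with 7.30 to 14.2 RPKM in DCKO and 3.90 to 16.0 RPKM in controls.

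Of 14 genes that move, activate or answer thyroid hormone, the substrate of Dio3, 8 were tested at E11.5 and 3 lay above 0 (all genes, 45.0%), and none passed. Of the other deiodinases, Dio1 was at 0 in all libraries of both stages and Dio2 in all E10.5 libraries. Of the genes related to Rtl1 by origin from the same retrotransposon family, 10 of 20 symbols were in the tables and 5 were tested at E11.5. None of the 5 lay above 0, where 45.0% of all genes did, and Ldoc1 had the smallest p (-1.32, SE 0.52, limma adjusted p = 0.902). At E10.5 all 3 tested lay below 0 (46.8% of all genes lay above), led by Peg10, itself a paternally expressed imprinted gene, at 1.41 to 15.8 RPKM in DCKO and 6.02 to 46.1 RPKM in controls (-1.49, SE 0.55, limma adjusted p = 0.991). Of 5 genes at other imprinted loci with a paternal methylation mark, 3 were tested at each stage and none passed, with Igf2 at 0.39 (SE 1.19) and H19 at -0.18 (SE 0.85) at E11.5.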

How the data were processed

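RNA of sorted PGCs was sequenced in 25 libraries. The authors deposited 1 table per stage, with 24318 genes in RPKM. The submitters' processing notes name the build mm9, TopHat2 2.1.0, Cufflinks 2.2.1 and Cuffdiff without their roles. Gene models, filters and strand setting: not given in the sources used here. RNA was amplified before library preparation, per the labels' protocols, which can widen the spread of low transcripts.

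Here limma 3.58.1 (R 4.3.3, intensity trend) was run on log2(RPKM + 1), two-sided, over genes averaging 1 RPKM or more (11584 at E10.5, 12667 at E11.5), with Benjamini-Hochberg adjustment over all of them and a threshold of 0.05. Fold changes of low genes are understated on this scale. At E11.5 the model had 4 means (sex by genotype), and at E10.5 additive genotype and sex. Single members were tested by exact permutation of the library labels (Python 3.11.15, scipy 1.17.1), which takes no account of sex when all libraries are used. Correlations used 100000 resamples. The limma step was tested on simulated data.

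The members and gene lists were chosen with earlier results of these data known. Named by rule were the 6 members, small RNA genes between Dlk1 and Dio3, Dnmt1, list genes past the threshold or with the smallest p, and the 5 genes most correlated with Meg3 and with Dlk1. Uhrf1, Zfp57, Dnmt3l, Jarid2, H19, Igf2, Zdbf2, Dio1, Dio2 and the E10.5 values of Maml1 were added after their values were seen. Alternatives were other pseudocounts, filters and scalings, replicate blocks, a somatic covariate and left-out libraries. Replicate numbers did not pair the samples: of 8 same-numbered pairs at E11.5, 2 had a correlation of deviations above 0.1.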

Additional observations from a re-analysis of the deposited data

Results flagged for a closer look

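Within each group of 1 sex and genotype with at least 4 libraries, the highest and lowest values of every member were compared with the rest. The comparison was made on log2(RPKM + 1), and all such groups were at E11.5. Of 24 such sets, 7 held a library that stood apart by a gap at the 95% limit, where chance alone gives about 1 in 20 sets of normal values. Many of these sets hold entries at 0 and the sets share libraries, so the number is not read against that rate. In male DCKO 1, Dlk1 was 80.2 RPKM against 0 to 0.536 RPKM in the other 3 male DCKO libraries, Rian was 56.9 RPKM against 0.577 to 1.28 RPKM, and Dio3 was 3.01 RPKM against 0 to 0.0717 RPKM. In male control 3, Mirg was 5.49 RPKM against 0.213 to 0.490 RPKM in the other male controls, and Rtl1 was 3.14 RPKM against 0 to 0.124 RPKM. These 2 libraries were also among the 3 highest in somatic markers. In female control 1, Rtl1 was 0.424 RPKM against 0 to 0.0277 RPKM in the other female controls. In female control 4, Dio3 was 0.951 RPKM and the other 3 were listed at 0. The 2 female libraries were not high in somatic markers, with means of 1.65 and 1.12.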

How the results depend on the processing

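In every limma fit and setting tried, 0 members passed the adjusted threshold. Signs were unstable. The E11.5 genotype difference of Dlk1 was -0.40 and -0.05 with pseudocounts of 0.1 and 0.5 (-0.39 and -0.08 in the exact permutation comparison), -0.60 without the 3 libraries highest in somatic markers, and -0.95 without the 3 with the fewest genes (male control 4, male DCKO 4 and male DCKO 1). Without the latter Meg3 was -0.71 and Mirg -0.08, and Mirg in males -0.58. Without title number 90 (chosen after seeing the data) Rian was 0.09, Dlk1 and Meg3 in males 0.73 and 1.04, and the interaction -0.53 for Dlk1 and -0.23 for Mirg. With the somatic covariate Dlk1 was -0.38 in females, Dlk1 and Meg3 in males 1.27 and 1.20, and the interaction -1.65 for Dlk1, -0.40 for Meg3 and -0.95 for Mirg. Without the 3 libraries highest in somatic markers Dlk1 was -0.40 in females and 0.32 for sex, and correlations with the germ cell mean were 0.19 for Meg3, 0.16 for Rian and 0.10 for Mirg. Mirg in males was -0.31 with a pseudocount of 0.1, in limma and in the exact comparison. With quantile normalization, added after seeing the data for exact tests as were all their alternatives, Rtl1 in males was 0.29 and Mirg at E10.5 -0.76 (p = 0.0286). The cause of these changes was not tested.

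A replicate block by title number gave -0.09 for Dlk1 over all libraries, -0.03 for Mirg in males and 0.72 for Dlk1 between the sexes. With it the SE of the E11.5 genotype difference was 0.46 for Dlk1, 0.77 for Meg3, 0.58 for Rian and 0.34 for Mirg. In the main fit the SE were 0.92, 0.96, 0.82 and 0.57. Male DCKO 1 was the only library of title number 88, and female DCKO 5 that of 91. A block fits such a library exactly, so neither informed the genotype difference in this fit. How far the smaller SE came from this, or from spread shared within title numbers, was not tested. The limma adjusted p with this block ran from 0.866 to 0.980. A replicate block by replicate number reversed no member. The numbers share no stated origin: 7 of 16 pairs of the same title number at E11.5 had a correlation of deviations above 0.1.

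Dnmt1 at E11.5 also missed the threshold with no filter (-2.07), median-of-ratios scaling (-2.02), the blocks by replicate and title number (-1.98 and -2.31), and without the libraries highest in somatic markers (-2.29) or of title number 90 (-2.21). Counts of genes past the threshold were small and moved with the setting. For genotype at E11.5, 3 genes became 1 without title number 90, and 2 to 5 with 1 library left out (5 without male control 1 or male DCKO 3). In females 1 became 2 with a pseudocount of 0.1, with no filter, with the replicate block by replicate number and with females alone, and 1 to 2 with 1 library left out. In males 4 became 2 and 1 with the blocks by replicate and title number, 8 with the covariate, and 1 each without the libraries highest in somatic markers, those with the fewest genes and those of title number 90, and 1 to 4 with 1 library left out. The interaction went from 0 to 1 with the replicate block by replicate number, and 0 to 1 with 1 library left out. For sex, 5 became 9 with pseudocounts of 0.1 and 0.5, 2 and 1 with the blocks, 18 when those with the fewest genes were left out, 2 without title number 90, and 4 to 11 with 1 library left out. At E10.5, 0 became 1 without the library highest in somatic markers or with the fewest genes, and 0 to 11 with 1 library left out (11 without the lone male DCKO library).

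With 1 library left out, E11.5 genotype differences ran from -0.69 to 0.51 for Dlk1, -0.10 to 1.25 for Meg3, -0.99 to 0.08 for Rian and -0.07 to 0.61 for Mirg. In females they ran from -0.40 to 0.89, 0.87 to 2.27, -0.04 to 1.03 and 0.14 to 0.85, and in males from -1.68 to 0.73, -1.65 to 1.04, -2.56 to -0.42 and -0.56 to 0.80. The interaction ran from -0.44 to 1.97 for Dlk1 and -0.37 to 0.98 for Mirg, and the sex difference from -0.88 to 0.23 for Dlk1, -0.20 to 0.89 for Rian and -0.50 to 0.11 for Mirg. At E10.5 Rian ran from -0.55 to 0.14. In the exact comparison over all E11.5 libraries Dlk1 ran from -0.49 to 0.47 and Rian from -0.61 to 0.19. Dio3 ran from -0.05 to 0.33 in females and -0.11 to 0.56 in males, Rtl1 from -0.44 to 0.32 in males and from -0.50 to 0.16 at E10.5. Depth is unknown, and members under 1 RPKM were read by exact tests only.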
